A study of Homo sapiens with 9 samples.

Results

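Transcripts of 10 genes that set how long an mRNA lasts were followed in MDA-MB-231 cells treated with indisulam or with pladienolide B, drugs that disturb splicing. MDA-MB-231 is an established human line of triple-negative breast cancer. The genes were chosen by name: ZFP36, ZFP36L1, ZFP36L2, ELAVL1, KHSRP, CNOT1, CNOT6, CNOT7, CNOT8 and TOB1. Each matched 1 feature, so they are 10 of the 46846 features in the table and 10 of the 16846 that passed the filter on low values, a mean of at least 10. The 9 libraries of polyadenylated RNA fall into 3 groups of 3: cells given DMSO, the solvent, for 12 h, cells given 3.3 µM indisulam for 12 h, and cells given 10 nM pladienolide B for 6 h. Indisulam is a sulfonamide that brings the splicing factor RBM39 to a ubiquitin ligase for degradation, and pladienolide B acts on SF3B, a complex of the spliceosome. Drug and time differ together between the pladienolide B libraries and both other groups, so they cannot be told apart there. All cells are of 1 line, and the labels name no genotype, clone or further agent.

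Many short-lived mRNAs carry AU-rich elements in the 3′ untranslated region (3′ UTR). Proteins of the ZFP36 family (ZFP36, also called tristetraprolin, with ZFP36L1 and ZFP36L2) and KHSRP bind these elements and hasten decay, while ELAVL1 (HuR) binds similar sequences and usually stabilises the mRNA. The ZFP36 proteins recruit the CCR4-NOT complex, which shortens the poly(A) tail: CNOT1 is its scaffold, CNOT6 is one catalytic subunit, CNOT7 and CNOT8 are the alternative forms of the other, and TOB1 is an adaptor that joins CNOT7 or CNOT8 to RNA-bound proteins.

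The core motif bound by ZFP36 proteins, the nonamer TTATTTATT, was searched on the transcript strand of the 3′ UTR of 1 GENCODE protein-coding transcript per gene (GRCh38). It stood once in each of ZFP36, ZFP36L1, ZFP36L2 and ELAVL1 and was not found in the annotated 3′ UTRs of the other 6 genes. Of 18855 genes with an annotated 3′ UTR, 7.53% held it. The 29-base sites are shown because they mark which members carry the motif of the ZFP36 family. They are written 5′ to 3′ on the transcript strand with the nonamer in capitals, and a match is a description of letters, not of binding.
ZFP36, chr19:39409196-39409224, plus strand: tatgacgactTTATTTATTctaatatgat
ZFP36L1, chr14:68788077-68788105, minus strand: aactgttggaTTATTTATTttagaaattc
ZFP36L2, chr2:43223448-43223476, minus strand: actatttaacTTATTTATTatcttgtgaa
ELAVL1, chr19:7961828-7961856, minus strand: atttatgtatTTATTTATTgaagtgtgaa

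The 250 bases before an annotated start are shown for the 3 genes whose levels moved most with pladienolide B, ZFP36L1 upward and ZFP36 and TOB1 downward (RefSeq, GRCh38.p14). For ZFP36L1 and TOB1 they belong to the more downstream of the starts listed. Capitals mark matches, on either strand, to any of 5 motifs: the CRE is TGACGTCA, the AP-1 motif TGANTCA, the CCAAT box is written as named, the GC box is GGGCGG, and the TATA box TATAAA.
ZFP36, chr19:39406597-39406846, plus strand: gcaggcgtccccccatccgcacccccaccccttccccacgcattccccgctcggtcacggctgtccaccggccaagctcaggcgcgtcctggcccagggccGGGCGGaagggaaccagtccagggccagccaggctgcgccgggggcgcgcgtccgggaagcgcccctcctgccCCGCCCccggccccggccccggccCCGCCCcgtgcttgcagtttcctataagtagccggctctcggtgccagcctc
ZFP36L1, chr14:68793417-68793666, minus strand: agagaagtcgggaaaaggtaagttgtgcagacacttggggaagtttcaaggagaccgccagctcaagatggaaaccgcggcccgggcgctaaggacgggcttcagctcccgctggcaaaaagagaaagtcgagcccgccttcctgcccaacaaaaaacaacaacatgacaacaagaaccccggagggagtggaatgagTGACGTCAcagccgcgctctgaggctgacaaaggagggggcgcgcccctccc
TOB1, chr17:50866355-50866604, minus strand: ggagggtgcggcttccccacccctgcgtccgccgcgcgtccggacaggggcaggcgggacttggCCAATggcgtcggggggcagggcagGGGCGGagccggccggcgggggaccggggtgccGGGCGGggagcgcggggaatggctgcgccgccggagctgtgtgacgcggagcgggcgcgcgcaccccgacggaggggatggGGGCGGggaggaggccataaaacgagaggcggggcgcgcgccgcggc
ZFP36 and TOB1 each held 3 GC boxes, a motif present in 42.6% of 35116 promoters, and TOB1 held 1 CCAAT box (32.0% of promoters). ZFP36L1 held 1 CRE, which 1.65% of promoters hold. The windows of the more upstream starts differ: that of ZFP36L1 held 0 CREs and 1 CCAAT box, and that of TOB1 held no match to any of the 5 motifs. AP-1 and TATA motifs (6.57% and 10.7% of promoters) had no match in these windows.

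Values are normalised read counts: reads per gene divided by 1 size factor per library. The libraries held 59312100 to 83910831 reads, and 3 reads, the limit that a count of 0 allows, came to a value of 2.48 to 3.87, so all 10 genes lay far above it. The summed values of a pladienolide B library averaged 1.39 times those of DMSO (1.04 times for indisulam). Scaling all libraries to 1 total therefore moved the median log2 difference of all genes between pladienolide B and DMSO by -0.47, and TMM scaling moved it by -0.11. Directions that turn with the scaling are named beside each gene. Markers of a mesenchymal breast line (VIM, CD44, AXL, MSN, CAV1, ANXA1) summed to 421159 to 448540.0 in DMSO, 409436 to 434108 after indisulam and 597312 to 679848 after pladienolide B. Within this sum AXL averaged 72199 with indisulam against 100634 in DMSO (limma adjusted p = 2.04e-05), and CD44 56906 against 48732 (0.0204). The luminal receptor genes ESR1 and PGR reached at most 2.04, and MS4A1, a leukocyte marker, was at 0 in all 9 libraries. The 9 luminal markers summed to 19201 to 22753, 20763 to 22451 and 20926 to 22391 in the same order, led by KRT19, but single markers moved. GATA3 averaged 392 in DMSO and 1529 with pladienolide B, EPCAM 973 and 1680.2, CDH1 70.6 and 105, and ERBB3 76.1 and 17.8. With indisulam GATA3 averaged 510.2 (limma adjusted p = 0.00847) and ERBB3 47.5 (0.114). The 6 leukocyte markers, nearly all CD68, summed to 6679 to 7652, 7456 to 7973 and 11602 to 15011. The part of these shifts in the results was not tested.

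Per kilobase of annotated exon in DMSO, KHSRP had the highest normalised count, 6631, followed by ELAVL1 at 2659. ZFP36L2 (1717) and ZFP36L1 (1679) came next and overlapped each other over the 3 libraries, then TOB1 at 925. ZFP36 (491) overlapped CNOT7 (486), CNOT6 (386) overlapped CNOT8 (378), and CNOT1 was lowest at 319. With indisulam the order was KHSRP (6487), ELAVL1 (2937), ZFP36L1 (1826) and ZFP36L2 (1817) with overlap, then TOB1 (1222). CNOT8 (517) overlapped CNOT7 (485), CNOT7 overlapped ZFP36 (467), and below them came CNOT6 (362) and CNOT1 (325). With pladienolide B, ZFP36L1 reached 4435 per kilobase and stood second to KHSRP at 7557, while ZFP36 was lowest at 224, overlapping CNOT6 at 255 and with its highest library at 270.1 beside CNOT1 at 269.6. The exon lengths are those of GENCODE, which need not be the ones the authors counted over.

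**Figure D1:**
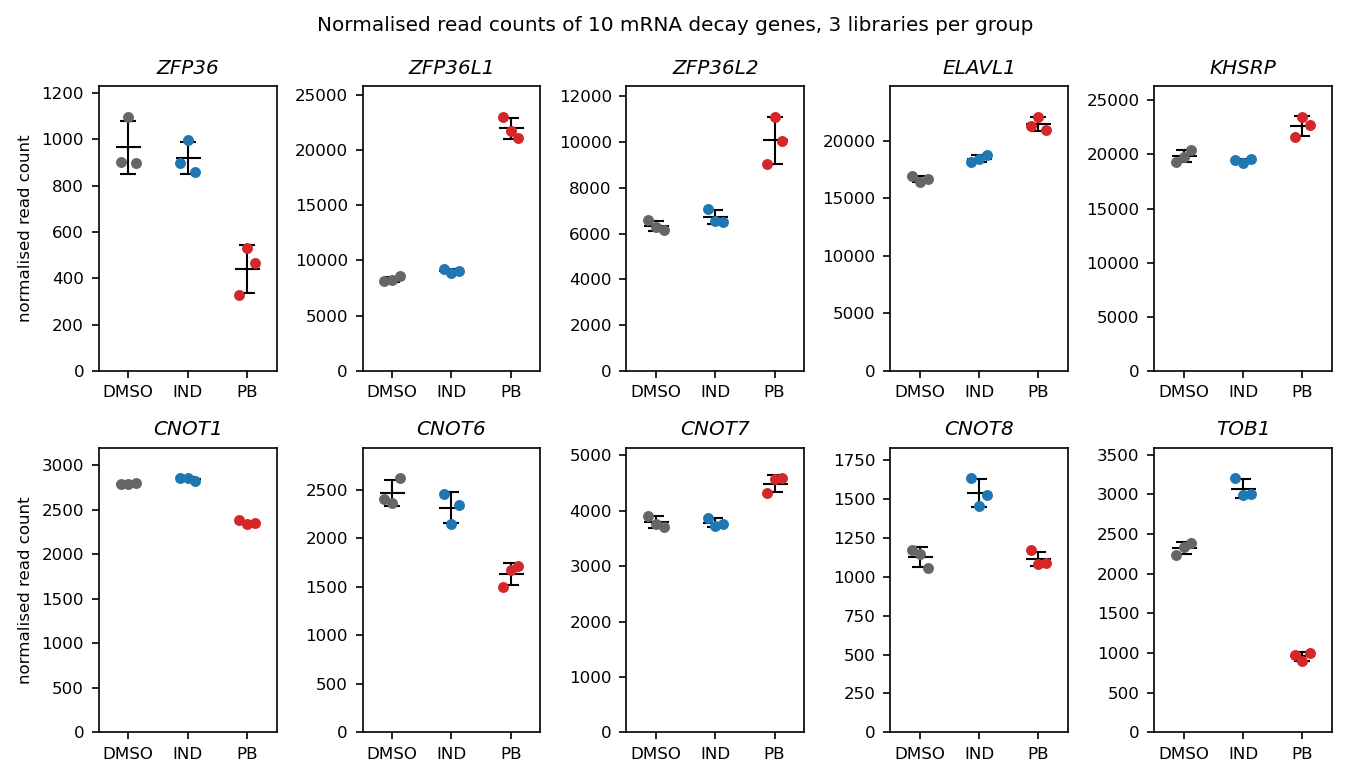
Normalised read count (linear axis from 0, own scale per gene) of the 10 genes in each of the 9 libraries (DMSO, IND for indisulam, PB for pladienolide B); points are libraries, and the dash and error bar give the group mean and SD. ZFP36L1 stands highest and TOB1 and ZFP36 lowest with pladienolide B, while CNOT8 stands highest with indisulam.

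With indisulam, 3 of the 10 genes rose (CNOT8, TOB1 and ELAVL1) and 0 fell, against 14.5% of all 16846 genes called higher, 12.4% called lower and 26.9% called in either direction. Values of 5 of the 10 did not overlap between indisulam and DMSO, against 48.4% of all genes. With pladienolide B, 5 rose (ZFP36L1, ZFP36L2, ELAVL1, CNOT7, KHSRP) and 4 fell (TOB1, ZFP36, CNOT6, CNOT1), against 34.3% and 35.5% of all genes and 69.8% in either direction. There, values of 9 of the 10 did not overlap, against 71.8%. The median log2 difference of the 10 genes was 0.05 for indisulam and 0.09 for pladienolide B, beside 0.05 and -0.01 for all genes, so both medians lay close to those of all genes. Calls are limma tests at a Benjamini-Hochberg adjusted p under 0.05 over all 16846 genes. Both comparisons use the same DMSO libraries. A change in some cells and a smaller change in all cells cannot be told apart in bulk RNA.

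**Figure D2:**
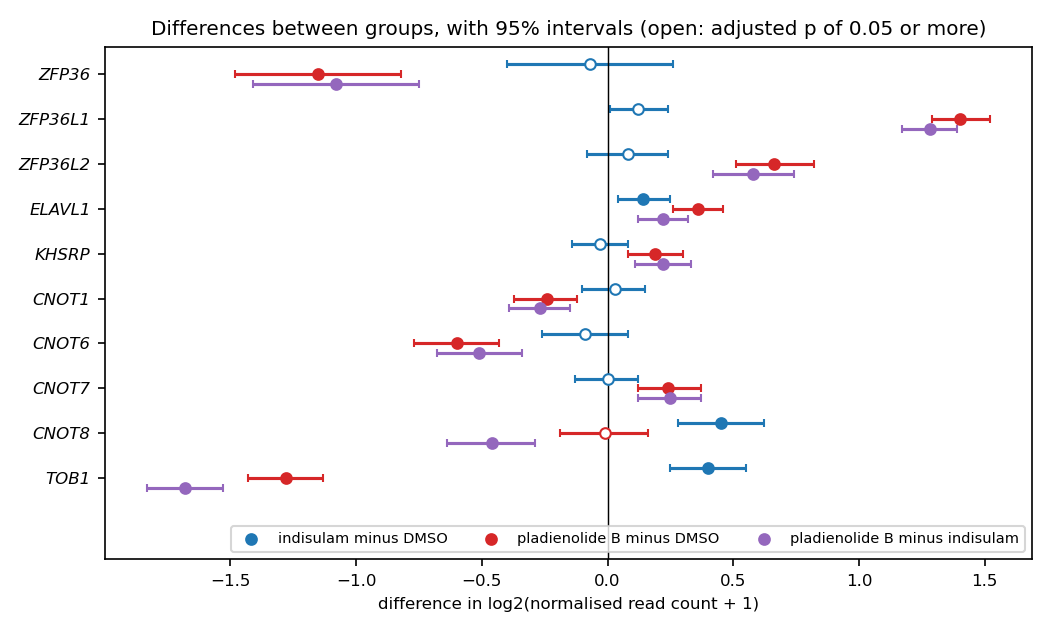
Difference in log2(normalised read count + 1) of each gene with its 95% interval for the 3 comparisons; filled points have an adjusted p under 0.05. ZFP36L1 lies at 1.40 and TOB1 at -1.28 for pladienolide B against DMSO, and CNOT8 and TOB1 lie at 0.45 and 0.40 for indisulam.

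ZFP36 is the family member whose mRNA is itself short-lived and quickly induced by many stimuli. Its normalised counts were 901, 1098 and 899 in DMSO, 899, 996 and 860.0 with indisulam, and 329, 531 and 464 with pladienolide B. All 3 pladienolide B libraries lay below all others. The difference from DMSO was -1.15 on the log2 scale (95% interval -1.48 to -0.82, limma adjusted p = 1.20e-05). For indisulam it was -0.07 (-0.40 to 0.26, adjusted p = 0.778), with overlapping values.

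ZFP36L1, a relative with the same zinc finger domain, moved the other way. It measured 8115, 8232 and 8574 in DMSO, 9205, 8850.5 and 9056 with indisulam, and 23030.0, 21735 and 21084 with pladienolide B. The groups did not overlap. Pladienolide B exceeded DMSO by 1.40 (1.29 to 1.52, limma adjusted p = 9.54e-11), and by 0.93 under the scaling to 1 total. The indisulam libraries also lay above all DMSO libraries, but the difference of 0.12 (0.01 to 0.24) had an adjusted p of 0.107 and was not called (0.0458 by limma with a replicate block).

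ZFP36L2, the third member, gave 6590.0, 6306 and 6145 in DMSO, 7063, 6572 and 6509 with indisulam, and 9041, 11116 and 10051 with pladienolide B. Only the pladienolide B libraries stood clear of the others. The difference from DMSO was 0.66 (0.51 to 0.82, limma adjusted p = 1.90e-06), and 0.19 (adjusted p = 0.0235) under the scaling to 1 total.

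Ratios within 1 library do not change when a library is scaled by 1 factor, as by the deposited size factors, TMM or equal totals, but quantile normalisation can change them. ZFP36L1 had 7.50 to 9.54 reads for each ZFP36 read in the DMSO libraries, 8.89 to 10.5 with indisulam, and 70.0, 40.9 and 45.4 with pladienolide B. The mean ratio was thus 6.00 times higher with pladienolide B than with DMSO, with no overlap, and that of ZFP36L2 to ZFP36 was 3.52 times higher. After quantile normalisation these were 3.56 and 2.30 times, still with no overlap. Of all reads on the 3 family genes, ZFP36 took 6.18% ± 0.724 (SD, n = 3) in DMSO, 5.51% ± 0.478 after indisulam and 1.36% ± 0.303 after pladienolide B. ZFP36L1 took 53.2% ± 1.52, 54.2% ± 0.805 and 67.6% ± 3.09 in the same order. These ratios were chosen after the values were seen and were not tested. An exact two-sided p of 3 libraries against 3 cannot lie below 0.1, for single genes as for ratios. The lower p-values of single genes rest on limma's model of the variances.

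ELAVL1, the stabilising protein, measured 16967, 16451 and 16722 in DMSO, 18133, 18455 and 18788 with indisulam and 21329, 22126 and 20958 with pladienolide B. The 3 groups did not overlap. Indisulam exceeded DMSO by 0.14 (0.04 to 0.25, limma adjusted p = 0.0397), a call that was lost without any 1 of the 6 libraries compared (adjusted p 0.0630 to 0.134) and under TMM scaling (0.165). Pladienolide B exceeded DMSO by 0.36 (0.26 to 0.46, adjusted p = 1.18e-05). That direction turned to -0.11 under the scaling to 1 total (adjusted p = 0.0262) and to -0.09 after quantile normalisation (0.0514).

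KHSRP, which recruits decay enzymes to AU-rich mRNAs, gave 19331, 19784 and 20428 in DMSO, 19446, 19222 and 19583 with indisulam and 21614, 23501 and 22741 with pladienolide B. Only the pladienolide B libraries stood apart. The difference from DMSO was 0.19 (0.08 to 0.30, limma adjusted p = 0.00422) but -0.28 under the scaling to 1 total (9.27e-05) and -0.29 after quantile normalisation (7.79e-05). Reads of ELAVL1 per read of KHSRP were 0.843 ± 0.0311 (SD, n = 3) in DMSO, 0.951 ± 0.0157 after indisulam and 0.950 ± 0.0334 after pladienolide B. Every library of both drug groups lay above every DMSO library, also after quantile normalisation.

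CNOT1, the scaffold, showed the least spread: 2792, 2794 and 2800.0 in DMSO, 2859, 2856 and 2822 with indisulam and 2382, 2346 and 2349 with pladienolide B. The DMSO values spread less (SD 4.01) than counting error alone would give (50.2), so the non-overlap of indisulam and DMSO, a difference of 0.03 (limma adjusted p = 0.784), was within counting error. Pladienolide B lay 0.24 below DMSO (log2 difference -0.24, -0.37 to -0.12, adjusted p = 0.00171). The feature of CSNK2A2 spans the whole CNOT1 gene in the table (chr16:58157907-58663470), and it was higher with pladienolide B, by 0.26 (adjusted p = 0.00826). How reads shared by such features were assigned is not given in the sources used here, so both values are uncertain.

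CNOT6, a deadenylase of the EEP type, measured 2409, 2369 and 2623 in DMSO, 2456, 2148 and 2349 with indisulam and 1504, 1675 and 1717 with pladienolide B. The pladienolide B libraries were the lowest 3, at -0.60 against DMSO (-0.77 to -0.43, limma adjusted p = 1.23e-05). Indisulam and DMSO overlapped, at -0.09 (-0.26 to 0.08, adjusted p = 0.433).

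CNOT7 and CNOT8 are close relatives that occupy the same place in the complex. CNOT7 gave 3915, 3754 and 3712 in DMSO, 3874, 3733 and 3759.7 with indisulam and 4319, 4568 and 4592 with pladienolide B. Indisulam and DMSO overlapped (difference 0.00, -0.13 to 0.12), and pladienolide B was higher by 0.24 (0.12 to 0.37, limma adjusted p = 0.00175) but lower, at -0.23, under the scaling to 1 total. CNOT7 shares bases with ZDHHC2, which differed from DMSO by -0.49 with indisulam and 0.50 with pladienolide B, so its values are uncertain too.

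CNOT8 had 1174, 1148 and 1054 in DMSO, 1634, 1457 and 1524 with indisulam and 1169, 1083 and 1089.6 with pladienolide B. Here the indisulam libraries stood above the other 6, by 0.45 over DMSO (0.28 to 0.62, limma adjusted p = 0.00112). Pladienolide B overlapped DMSO (-0.01, -0.19 to 0.16, adjusted p = 0.888), but both the sign and the call of that difference varied with the scaling. CNOT8 was called lower at 1 total (-0.49, limma adjusted p = 0.000146) and higher after quantile normalisation (0.27, adjusted p under 0.05). Under TMM scaling it was not called (-0.12, 0.201). CNOT7 had 3.38 ± 0.131 reads for each CNOT8 read in DMSO (SD, n = 3), 2.47 ± 0.0959 after indisulam and 4.04 ± 0.300 after pladienolide B. The drug groups lay on opposite sides of DMSO with no overlap. After quantile normalisation indisulam still lay below DMSO, but pladienolide B overlapped it, with a mean ratio of 3.44 ± 0.229 against 3.68 ± 0.174.

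Among the 10 genes, the drugs differed most on TOB1. It measured 2241, 2339 and 2387 in DMSO, 3207, 2996 and 3004 with indisulam and 973, 899 and 1001 with pladienolide B. Every indisulam library lay above and every pladienolide B library below the DMSO range. The differences from DMSO were 0.40 (0.25 to 0.55, limma adjusted p = 0.00102) and -1.28 (-1.43 to -1.13, adjusted p = 2.46e-09). Set directly against each other, pladienolide B was below indisulam by 1.68 (log2 difference -1.68, adjusted p = 2.13e-10). TOB1 reads per CNOT7 read were 0.613 ± 0.0364 (SD, n = 3) in DMSO, 0.810 ± 0.0157 after indisulam and 0.213 ± 0.0148 after pladienolide B.

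In the direct comparison of the drugs, 5 genes were higher and 5 lower with pladienolide B, against 34.7% and 35.6% of all genes and 70.3% in either direction. At 1 total, 2 were higher and 8 lower, beside 3014 and 8497 of all 16846 genes. ELAVL1 turned from 0.22 to -0.20, KHSRP from 0.22 to -0.20 and CNOT7 from 0.25 to -0.17. After quantile normalisation ELAVL1 and KHSRP were both at -0.21. All 10 had values that did not overlap, against 71.8%. CNOT8 was lower by limma at -0.46 (adjusted p = 0.000142), ZFP36 at -1.08 (2.13e-05) and CNOT6 at -0.51 (5.74e-05). ZFP36L1 was higher by 1.28 (1.98e-10) and ZFP36L2 by 0.58 (6.82e-06).

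**Figure D3:**
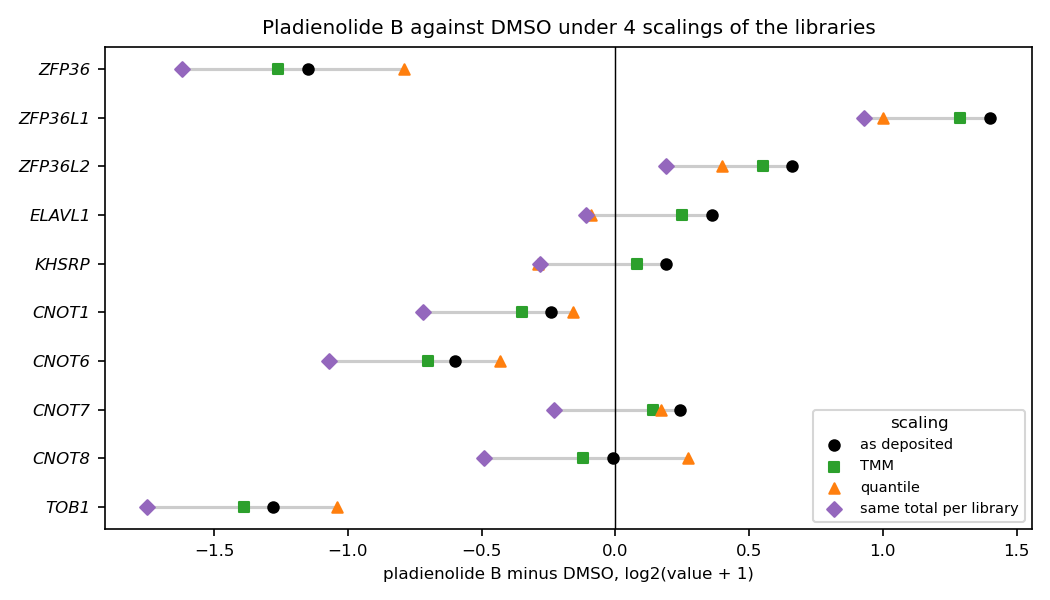
Log2 difference between pladienolide B and DMSO for each gene under 4 scalings of the libraries. ZFP36, CNOT1, CNOT6 and TOB1 stay below 0 and ZFP36L1 and ZFP36L2 above 0 under all 4, while ELAVL1, KHSRP, CNOT7 and CNOT8 lie on both sides.

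The other subunits of CCR4-NOT were lower with pladienolide B as a group: 8 of 8 fell, with a median log2 difference of -0.82. The median was -1.30 at 1 total, and 7 of 8 fell after quantile normalisation. Of all 16846 genes, 34.3% were called higher and 35.5% lower with pladienolide B, and 14.5% and 12.4% with indisulam. At 1 total 2733 genes were higher and 9086 lower with pladienolide B, and the median of all genes went from -0.01 to -0.48. CNOT2, which with CNOT3 forms the NOT module, fell from 2566 ± 140.0 to 687 ± 79.1 (SD, n = 3), a difference of -1.90 (limma adjusted p = 4.92e-10). TNKS1BP1, a protein associated with the complex, fell from 4685 ± 139.8 to 1263 ± 68.3 (-1.89, 4.09e-11). With indisulam, CNOT6L, the paralog of CNOT6, rose from 883 ± 29.5 to 1348 ± 81.0 (0.61, 0.00332) and CNOT10 fell by 0.46 (log2 difference -0.46, 0.00164). CNOT4 rose by 0.39 (0.0152), a call lost without DMSO replicate 2, indisulam replicate 1 or indisulam replicate 3 (0.0557 to 0.0745). The other 5 were not called with indisulam, although there were 2 falls without pladienolide B replicate 1 or 2, which share the fit. There were 3 falls under TMM and at 1 total, and 2 after quantile normalisation.

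Among the BTG and TOB adaptors and other deadenylases, 10 of the 11 listed were tested. With pladienolide B 6 fell and 2 rose (median -0.71), beside 35.5% and 34.3% of all genes. At 1 total 8 fell and 0 rose, beside 9086 and 2733 of all 16846 genes. BTG2, an antiproliferative relative of TOB1, fell from 323 ± 16.5 to 81.0 ± 29.0 (-2.05, limma adjusted p = 3.23e-06), and TOB2, the paralog of TOB1, fell from 3853 ± 83.5 to 1256 ± 117 (-1.62, 3.83e-10). TOE1, a nuclear deadenylase, fell by 0.54 with indisulam (log2 difference -0.54, 0.000685) and rose by 0.50 with pladienolide B (0.000178; 0.03 at 1 total, 0.771). PARN, the poly(A)-specific ribonuclease, fell with indisulam (-0.68, 0.000372). There 3 of the 10 fell and 1 rose, beside 12.4% and 14.5% of all genes. That 1 was NOCT (0.33, 0.0323), whose calls with indisulam and with pladienolide B (0.29, 0.0220) were each lost under 7 of 20 alternatives. Among those were the fits without DMSO replicate 1 or 2, indisulam replicate 3 (first call) and pladienolide B replicate 2 or 3 (second call). A second rise with indisulam appeared without pladienolide B replicate 2. At 1 total its pladienolide B difference was -0.18.

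Of 24 other RNA-binding proteins of mRNA stability, 20 were tested. With pladienolide B 7 rose and 10 fell (median -0.29), beside 34.3% and 35.5% of all genes. With indisulam 5 rose and 1 fell (0.12), or 3 and 1 without DMSO replicate 3 or indisulam replicate 1. The shares of all genes with indisulam were 14.5% and 12.4%. ZC3H12A, the ribonuclease Regnase-1, rose from 148 ± 28.0 to 480.4 ± 65.7 with pladienolide B (1.70, limma adjusted p = 1.33e-06). SAMD4A, which recruits deadenylases, fell (-1.58, 6.85e-10), as did TNRC6C, a partner of Argonaute proteins (-1.52, 5.23e-06). TIA1, a stress granule protein, rose with indisulam from 836 ± 81.6 to 1649.8 ± 74.0 (0.98, 1.68e-05), and IGF2BP3 fell (-0.79, 0.000953). NANOS1 rose with both drugs (0.47, 0.00233 for indisulam; 1.35, 2.10e-08 for pladienolide B). Features of EIF3A, MALSU1 and TMC6 overlap NANOS1, IGF2BP3 and TNRC6C, so those values are uncertain.

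Decapping and 5′ to 3′ decay genes (12 of 13 tested) gave 3 rises and 0 falls with indisulam (median 0.13). Of all genes, 14.5% and 12.4% were called higher and lower there. With pladienolide B 2 rose and 6 fell (median -0.38), beside 34.3% and 35.5% of all genes. At 1 total 0 rose and 11 fell with pladienolide B, beside 2733 and 9086 of all 16846 genes. PATL1 and DDX6, which link deadenylation to decapping, rose with indisulam by 0.70 (limma adjusted p = 8.13e-06) and 0.50 (1.97e-05). LSM14B and EIF4ENIF1, both partners of DDX6, fell with pladienolide B by 1.62 (log2 difference -1.62, 3.86e-10) and 1.20 (-1.20, 1.69e-07). DCPS, the scavenger decapping enzyme (0.30, 0.00313), and LSM1, a subunit of the ring that binds deadenylated ends (0.25, 0.00305), rose with pladienolide B but differed by -0.17 (0.0591) and -0.22 (0.00983) at 1 total.

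Exosome and 3′ to 5′ decay genes (17 tested) divided. With indisulam 3 rose and 4 fell, beside 14.5% and 12.4% of all genes. With pladienolide B 7 rose and 5 fell, beside 34.3% and 35.5% of all genes. Those counts were 6 and 3 without DMSO replicate 3, and 7 and 3 without pladienolide B replicate 2. At 1 total 2 rose and 11 fell with pladienolide B, beside 2733 and 9086 of all 16846 genes. Among core subunits, EXOSC7 rose (0.60, limma adjusted p = 6.86e-05) and EXOSC8 fell (-0.85, 6.16e-06) with indisulam. EXOSC6 (0.83, 1.71e-07) and EXOSC5 (0.68, 3.90e-06) rose and EXOSC3 fell (-0.73, 1.69e-07) with pladienolide B. EXOSC9 (0.32, 0.00603) rose with indisulam. SKIC3, of the exosome's helicase cofactor, fell with indisulam (-0.46, 0.0241; not called if DMSO replicate 1, DMSO replicate 3, indisulam replicate 2 or indisulam replicate 3 was left out, 0.0543 to 0.0927), and DIS3L, a cytoplasmic exosome nuclease, fell with pladienolide B (-0.39, 0.000287). Features of AARS1 and CCNA2 overlap EXOSC6 and EXOSC9, whose values are therefore uncertain.

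Transcripts known to carry AU-rich elements, the substrates of these proteins, were more often higher than lower with pladienolide B in a list chosen by hand: 16 of 31 tested rose and 2 fell, beside 34.3% and 35.5% of all genes. The list's median was 0.50, beside -0.01 for all genes. At 1 total 8 rose and 9 fell, with a median of 0.02. All 16846 genes then gave 2733 higher and 9086 lower, with a median of -0.48. The order was the other way over the tested genes matched to a GENCODE transcript with a 3′ UTR, grouped by the nonamer there. All 12270 tested genes matched to GENCODE had a median of -0.09 with pladienolide B (33.7% higher, 40.4% lower). The median log2 difference was -0.06 over 11133 genes with no nonamer (34.6% higher, 39.3% lower), -0.32 over 811 genes with 1 (25.9% higher, 49.9% lower) and -0.33 over 236 genes with 2 or more (23.3% higher, 54.2% lower). Median 3′ UTR lengths in these classes were 995, 2728 and 3762 bases, and the part of length was not tested. IL6, an inflammatory cytokine, rose from 405 ± 70.4 to 1614 ± 209 (SD, n = 3; 2.00, limma adjusted p = 1.45e-07), and EGR1, an immediate early factor, from 1489 ± 559 to 4557 ± 1149.6 (1.66, 0.000408). JUN (-0.62, 3.20e-07) and PLAU (-0.35, 0.00113) fell. With indisulam 4 rose and 2 fell (median 0.14), beside 14.5% and 12.4% of all genes. DUSP1 (0.86, 7.57e-06) and MAFF (0.62, 3.87e-05) were the largest rises, and IER3 (-0.27, 0.00659) and LIF (-0.23, 0.0128) were the falls. The falls came to 1 without DMSO replicate 1, DMSO replicate 2 or indisulam replicate 3.

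**Figure D4:**
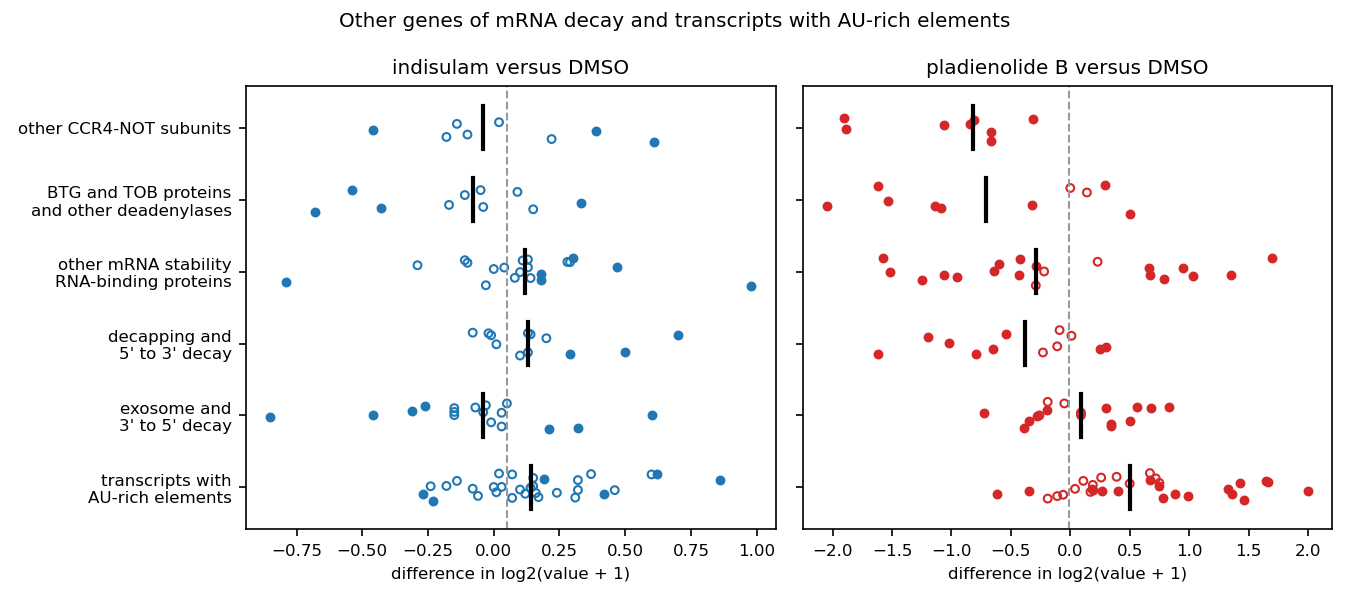
Log2 difference of each tested gene from DMSO, by list and drug; the horizontal axis is the difference in log2(normalised read count + 1), filled points have an adjusted p under 0.05, black lines are list medians and the dashed line is the median of all tested genes. All 8 other CCR4-NOT subunits lie below 0 with pladienolide B, and the AU-rich transcripts have a median of 0.50 there.

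The genes whose levels over the 9 libraries were most like those of a member were found by the root mean square (RMS) difference of log2 values centred on the DMSO mean, among 11526 genes with a mean of at least 100. TMEM185A was nearest to ZFP36 (RMS difference 0.054), then GGA1 and PFKFB3. NONO was nearest to ELAVL1 (0.030), then EIF4B and VCL. RAD23B, PPP5C and NUP205 were nearest to KHSRP (0.026 for the first), and MED20, CYRIB and ABCC1 to CNOT1 (0.031). GLCCI1, RIC8B and SRGAP2C were nearest to TOB1 (0.064), and GLCCI1 differed from DMSO by 0.43 with indisulam and -1.19 with pladienolide B.

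The members differ widely in gene structure. ZFP36, ZFP36L1, ZFP36L2 and TOB1 have 1 intron each in the transcript used, ELAVL1 has 5, CNOT7 and CNOT8 have 6, CNOT6 has 13, KHSRP has 19 and CNOT1 has 48. The 1-intron genes included both the largest rise and the largest falls among the members with pladienolide B. Over all 559 tested genes with 1 intron the median log2 difference was 0.01. It was 0.73 over 264 genes with none, 0.14 over 4242 with 2 to 6, -0.16 over 4605 with 7 to 15 and -0.34 over 2600 with 16 or more. At 1 total the medians for 1 intron, none, and 16 or more were -0.45, 0.25 and -0.81.

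**Figure D5:**
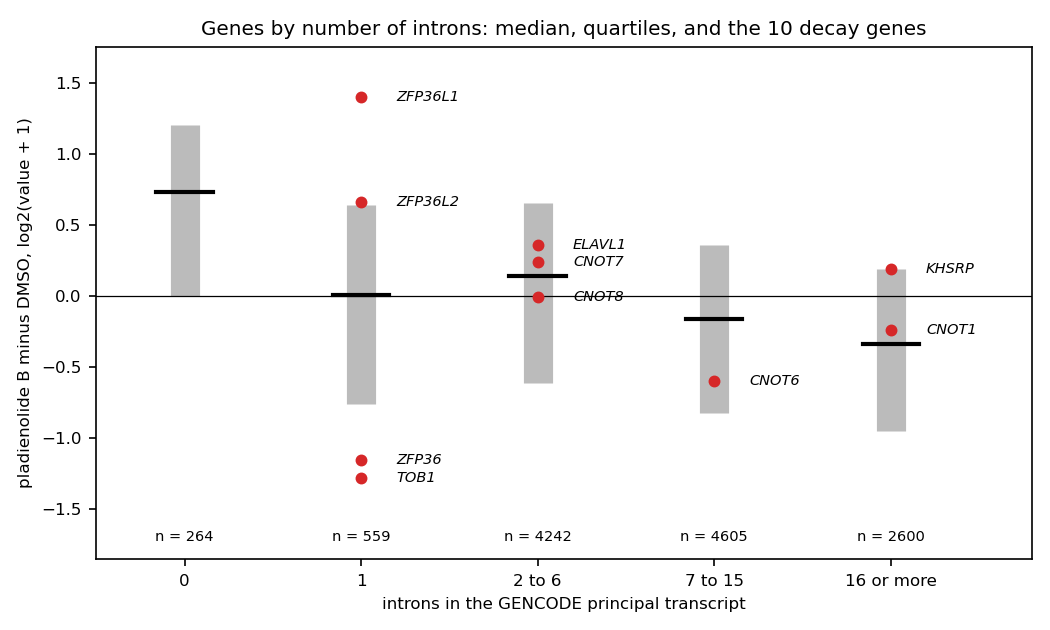
Median (line) and interquartile range (grey bar) of the log2 difference between pladienolide B and DMSO over all tested genes matched to GENCODE, by number of introns, with the 10 members as named points. The median is 0.73 with no intron and -0.34 with 16 or more, and ZFP36L1 and TOB1 lie far apart within the 1-intron class.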

How the data were processed

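Polyadenylated RNA of 9 libraries was measured. The deposited signal is, per the file headers and the labels, read counts that the authors normalised with DESeq2, 1 size factor for each library. The submitters' processing notes also name FastQC, Picard, SAMtools, STAR 2.7.5a and hg38; which tool counted reads, and whether by strand, is not given in the sources used here. All values were whole multiples of 1 read (100% within 0.01), so whole reads were recovered. Libraries of 1 group differed by more than sampling noise (lowest chi-square per gene 8.83). The labels call them replicas without naming separate cultures. The p-values therefore reflect library-to-library spread, which may be technical.

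Groups were compared by limma (version 3.58.1, in R 4.3.3) of log2(value + 1), all 9 libraries in 1 fit, trended moderated variances, two-sided, Benjamini-Hochberg adjusted over 16846 genes with a mean of at least 10. Differences are on that log2 scale, which understates changes of low genes. The limma test was tried on simulated data, with changes placed in genes with a DMSO mean of at least 10. For indisulam it recovered 18% of 1.25-fold, 66% of 1.5-fold, 70% of 2-fold and 98% of 4-fold changes. For pladienolide B the shares were 20%, 56%, 70% and 98%, with 50 changed genes per fold. Alternatives were TMM, equal totals, quantile normalisation, pseudocounts of 0.5 and 5, a mean of at least 50, no filter, edgeR 4.0.16 and DESeq2 1.42.0 on the recovered reads, only the 2 groups compared, a replicate block and leaving out each library. Members and gene lists were chosen with earlier results of these data known. Named beside the members are, per list and drug, up to 2 called genes in each direction by size of change, and the 3 nearest genes of 5 members. BTG1 and DCP1B were not analysed here. Introns, exons and 3′ UTRs come from GENCODE v29.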

Additional observations from a re-analysis of the deposited data

How the results depend on the processing

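With equal totals, pladienolide B against DMSO gave 2733 genes higher and 9086 lower (members 2 and 8), and against indisulam 3014 higher (members 2 and 8); TMM gave 3 members higher against DMSO and quantile normalisation 3 higher against indisulam. Of the called genes, 53.8% were higher with indisulam, but 42.4% under TMM and 40.3% with equal totals; for pladienolide B the shares were 49.1%, 43.3% and 23.1%. Signs against DMSO turned for ELAVL1 (-0.11 with equal totals, -0.09 with quantile normalisation), KHSRP (-0.28, -0.29), CNOT7 (-0.23 with equal totals) and CNOT8 (0.27 with quantile normalisation), and against indisulam for ELAVL1 (-0.20, -0.21), KHSRP (-0.20, -0.21) and CNOT7 (-0.17 with equal totals). The KHSRP call against DMSO was lost under TMM (adjusted p = 0.180) and edgeR (0.0799), and that of CNOT7 under TMM (0.0520). In an alternative chosen after seeing the data, quantile normalisation turned the log2 change of the CNOT7 to CNOT8 ratio with pladienolide B against DMSO from 0.26 to -0.10. That of ELAVL1 to KHSRP against indisulam was 0.00 either way. With indisulam against DMSO, 2 members were higher under TMM (of 1799 genes), equal totals (1714), no filter (2024) and edgeR (1925). The same count came without any 1 DMSO or indisulam library. With only the 2 groups compared, 4 members were higher (of 3497 genes), ZFP36L1 among them (limma adjusted p = 0.0487). Leaving out 1 library gave 1565 to 2982 genes higher with indisulam, 1565 without indisulam replicate 3 and 1620 without DMSO replicate 2. The count was 2689, 2982 and 2775 without pladienolide B replicate 1, 2 and 3, which share the fit. The cause was not tested. All 10 genes lay far above the value of 3 reads.

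Same-numbered libraries correlated at 0.003 to 0.128 in their deviations from the group means over all tested genes (other pairs -0.124 to 0.045), so the numbers were not taken to pair them. Over genes with a mean of at least 100 the same correlations were 0.105 to 0.376 (other pairs -0.293 to 0.121), so whether the numbers mark a pairing is not settled. With a replicate block, indisulam gave 3548 genes higher and 2739 lower and 4 members higher, ZFP36L1 among them (limma adjusted p = 0.0458); pladienolide B gave 6081 and 6248 against DMSO (members 5 and 4) and 6139 and 6260 against indisulam (members 5 and 5).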
